A study of Mus musculus with 5 samples.

Results

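UDP-glucuronosyltransferases are enzymes of the endoplasmic reticulum that attach glucuronic acid, taken from the donor UDP-glucuronic acid, to bilirubin, bile acids, steroids and many drugs, so that these can leave the body in bile or urine. In liver the genes are controlled by hepatocyte transcription factors such as HNF4A, and several are induced through the receptors CAR, PXR, AhR and PPARA. The Ugt1a genes use alternative first exons joined to shared last exons, whereas each Ugt2b gene has exons of its own. Of 10 genes listed for the family here, 8 were found by matching the RefSeq identifier of each non-control probe to a symbol. They were Ugt1a1, Ugt2a3, Ugt2b1, Ugt2b5, Ugt2b34, Ugt2b35, Ugt2b37 and Ugt2b38, out of 17012 genes named on the array. Ugt2b37 had 2 probes and the others 1, which made 9 of 41174 probes. No probe matched Ugt1a6a or Ugt2b36, for which only the promoter was examined.

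The samples were 5 livers, called livers 1 to 5, of male C57BL/6N mice that were on an ethanol diet for 8 weeks and received 3 ethanol binges of 5 g per kg. The age of the mice, and whether each sample was a separate animal, are not stated in the labels. The p-values therefore reflect variation among these 5 arrays, which may be technical. Each liver (Cy5) was hybridised with 1 reference RNA (Cy3), a purchased mouse RNA called assorted, whose tissue and strain the labels give as liver and C57BL/6N. No array had exchanged dyes and no other group was analysed here, so every ratio below sets an ethanol-treated liver against that reference and none measures an effect of ethanol. In such bulk RNA, fewer cells of a type and less RNA per cell cannot be told apart.

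The promoters of Ugt2b5, Ugt2b37 and Ugt2b38 are shown because these genes of 1 cluster, described together below, share a long stretch next to their starts. That of Ugt2b1 is shown because Ugt2b1 was the lowest member. It lacks the stretch, as do the promoters of all other listed genes, and a link of the stretch to the ratios was not tested. The RefSeq promoter table (GRCm38.p6) held all 10 listed genes. The last 150 bases before the start are given 5′ to 3′, with the longest stretch common to Ugt2b5, Ugt2b37 and Ugt2b38 in capitals. That stretch is 62 bases long, and 3 of the 10 promoters hold it. The regions are chr5:86926504-86926653 for Ugt2b1, chr5:87140341-87140490 for Ugt2b5, chr5:87254789-87254938 for Ugt2b37 and chr5:87424204-87424353 for Ugt2b38, all on the minus strand.
Ugt2b1: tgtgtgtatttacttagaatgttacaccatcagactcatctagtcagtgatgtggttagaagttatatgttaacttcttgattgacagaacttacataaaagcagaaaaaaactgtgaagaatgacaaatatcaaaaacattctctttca
Ugt2b5: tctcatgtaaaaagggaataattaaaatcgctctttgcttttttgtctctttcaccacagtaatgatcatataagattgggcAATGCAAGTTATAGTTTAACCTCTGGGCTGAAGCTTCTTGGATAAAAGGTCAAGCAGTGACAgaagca
Ugt2b37: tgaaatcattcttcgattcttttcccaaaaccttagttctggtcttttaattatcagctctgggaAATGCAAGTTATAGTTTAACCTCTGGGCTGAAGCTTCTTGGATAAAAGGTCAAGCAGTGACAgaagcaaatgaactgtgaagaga
Ugt2b38: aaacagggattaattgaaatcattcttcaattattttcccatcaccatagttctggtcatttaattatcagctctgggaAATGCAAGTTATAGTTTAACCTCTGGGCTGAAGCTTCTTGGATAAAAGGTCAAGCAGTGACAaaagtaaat

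Over these 150 bases, Ugt2b37 and Ugt2b38 were 78% identical in a global alignment, Ugt2b5 and Ugt2b38 75% and Ugt2b5 and Ugt2b37 62.6%. Ugt2b36, which lacks the stretch, was 67.5% identical to Ugt2b5, 61.8% to Ugt2b37 and 70.5% to Ugt2b38. Ugt2b1 shared 48.1% to 54.1% of aligned positions with the promoters of the other 9 genes except Ugt1a6a, where it was 46.4%. The 250 bases before each start were searched on both strands for short elements, in the 10 genes and in all 32851 promoters of the table. The AhR core GCGTG, present in 28.2% of all windows, and the antioxidant element TGACNNNGC, present in 10.2%, were in 0 of the 10. Repeats of AGGTCA were searched with up to 2 mismatches. Among the 10 promoters, the form with 4 bases between the repeats, of the CAR and PXR kind (2.57% of all windows), was found in Ugt2b35 alone, and the form with 1 base (3.24%) in Ugt2b36 alone. These matches describe letters in a window and were not tested for binding.

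Ratios are log2 of liver over reference after normalization within the array, so that 0 is equality and -1 is 2-fold lower in liver. A probe passed the test at an adjusted p below 0.05 (limma, all 31887 tested probes). All 9 member probes read well above background for liver and reference alike on each of the 5 arrays. Single spots marked non-uniform by the scanner software were left out, and this left the Ugt2b38 probe with only 2 values and no test. The family stood below the reference. Of the 8 tested member probes, 8 had a mean below 0, 6 passed as lower and 0 as higher, whereas 11.5% of all tested probes passed as lower and 16.2% as higher. The median log2 ratio was -0.53 over the member probes (range -1.23 to -0.27) and -0.0033 over all tested probes, of which 50.5% had a mean below 0.

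**Figure D1:**
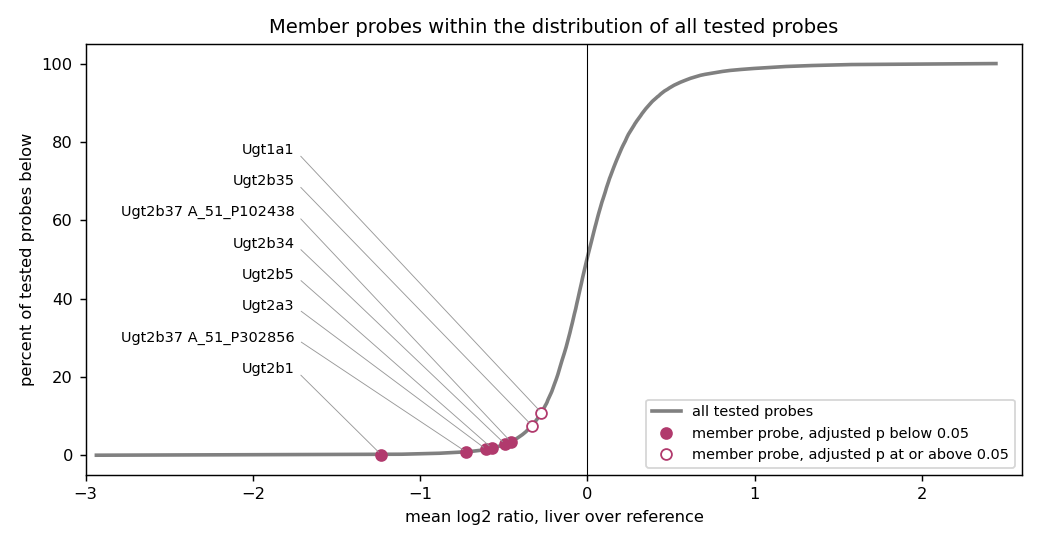
Mean log2 ratio of liver over reference on the horizontal axis against the percent of all 31887 tested probes lying below it (grey curve). Points mark the 8 tested member probes, filled where the adjusted p was below 0.05; they lie between -1.23 (Ugt2b1) and -0.27 (Ugt1a1).

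Ugt2b1, which encodes a hepatic enzyme of the UGT2B subfamily, was the lowest member. Its log2 ratios were -1.53, -1.31, -0.80, -1.20 and -1.32 in livers 1 to 5, a mean of -1.23 ± 0.27 (SD, n = 5), or 2.35-fold lower (adjusted p = 0.00021). All 5 livers were below the reference, and liver 3 was nearest to it. The background-subtracted signal was 342, 954, 1993, 1403 and 1150 in livers 1 to 5 and 1084, 2479, 3016, 4013 and 4080 in the reference on the same arrays. It was the only member to pass with a ratio of at least 2-fold, as did 0.32% of all tested probes on the lower side (1.2% on the higher side, with 0 members), and 0.176% of tested probes had a lower mean. Ugt2b1 lay below each other member probe in every liver in which both had a value. Against Ugt1a1 the mean difference was -0.96 ± 0.10 (SD, n = 5). For this and the other pairs with 5 values the exact sign-flip test (two-sided) gave p = 0.0625, the smallest that 5 livers allow. Ugt2b1 was picked as the lowest on these same ratios, so this p-value adds no support to its rank.

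**Figure D2:**
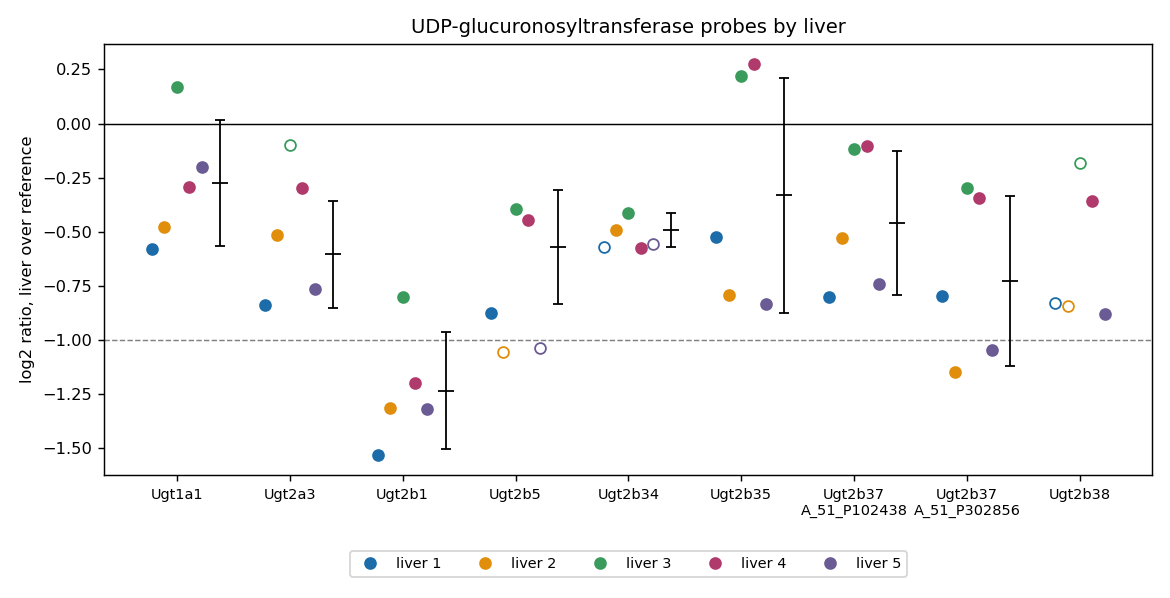
Log2 ratio of liver over reference for each member probe, 1 point per liver; open points are spots left out as non-uniform, and bars at the right of each column give the mean and SD of the values used. The dashed line is 2-fold lower; all 5 livers lie between -1.53 and -0.80 for Ugt2b1.

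As for every measured member but Ugt2b1, mean ratios of Ugt2b5, Ugt2b37 and Ugt2b38, whose promoters hold the stretch, were lower by less than 2-fold. These genes, with Ugt2b1, Ugt2b34, Ugt2b35 and Ugt2a3, form 1 cluster on chromosome 5, and the close paralogs may share signal because the probe sequences were not used here. Ugt2b5 was at -0.88, -0.39 and -0.44 in livers 1, 3 and 4, a mean of -0.57 ± 0.26 (SD, n = 3; adjusted p = 0.0143). Livers 2 and 5, left out as non-uniform spots, would have been the lowest, at -1.06 and -1.04. With these spots kept, the mean was -0.77 ± 0.32 (SD, n = 5; adjusted p = 0.00226).

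The probes of Ugt2b37 both passed as lower. Probe A_51_P302856 was at -0.80, -1.15, -0.30, -0.34 and -1.05 in livers 1 to 5, with a mean of -0.73 ± 0.39 (SD, n = 5; adjusted p = 0.00568). Probe A_51_P102438 was at -0.80, -0.53, -0.12, -0.10 and -0.74, with a mean of -0.46 ± 0.33 (SD, n = 5; adjusted p = 0.0205). Both were highest in livers 3 and 4, and the first lay below the second in 4 of 5 livers. Their mean difference was -0.27 ± 0.23 (exact sign-flip test, two-sided, p = 0.125), where 5 livers cannot give a p below 0.0625. The call of A_51_P102438 was lost without liver 2 (-0.44, adjusted p = 0.06) or liver 5 (-0.39, adjusted p = 0.0624).

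Ugt2b38 had usable spots in livers 4 and 5 only, at -0.36 and -0.88. With the non-uniform spots of livers 1 to 3 kept, at -0.83, -0.84 and -0.18, its mean was -0.63 ± 0.32 (SD, n = 5) and passed as lower (adjusted p = 0.00536). In that setting too, livers 3 and 4 were the highest.

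Ugt2a3, whose human counterpart glucuronidates bile acids, was at -0.84, -0.52, -0.30 and -0.76 in livers 1, 2, 4 and 5. Its mean was -0.60 ± 0.25 (SD, n = 4), or 1.52-fold lower, and passed (adjusted p = 0.00527). The liver 3 spot left out as non-uniform read -0.10, nearest to the reference. Ugt2b34, at the edge of the cluster, was at -0.49, -0.41 and -0.57 in livers 2, 3 and 4, a mean of -0.49 ± 0.080 (SD, n = 3; adjusted p = 0.00986). Its left-out spots in livers 1 and 5 read -0.57 and -0.56. It was the member with the least spread. With all spots kept its SD was 0.074, and 95.4% of probes had an SD at least as large.

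Ugt1a1, the enzyme that conjugates bilirubin, did not pass. Its log2 ratios were -0.58, -0.48, 0.17, -0.29 and -0.20 in livers 1 to 5, a mean of -0.27 ± 0.29 (SD, n = 5; adjusted p = 0.0855). Liver 3 stood above the reference, with a signal before normalization of 3549 against 2762, and the other livers below it. Without liver 3 the mean was -0.39 and passed (adjusted p = 0.0259), as it did with median centring in place of loess (-0.43, adjusted p = 0.0308). Probe sequences were not used here, so this probe and those of other Ugt1a genes below may read the shared last exons.

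Ugt2b35 also did not pass, at -0.33 ± 0.54 (SD, n = 5; adjusted p = 0.199). Its livers fell on both sides of the reference, with -0.52, -0.79 and -0.83 in livers 1, 2 and 5 and 0.22 and 0.28 in livers 3 and 4. The signal was 140, 272 and 258 in the former against 219, 478 and 686 in the reference, and 784 and 591 in the latter against 529 and 577.

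**Figure D3:**
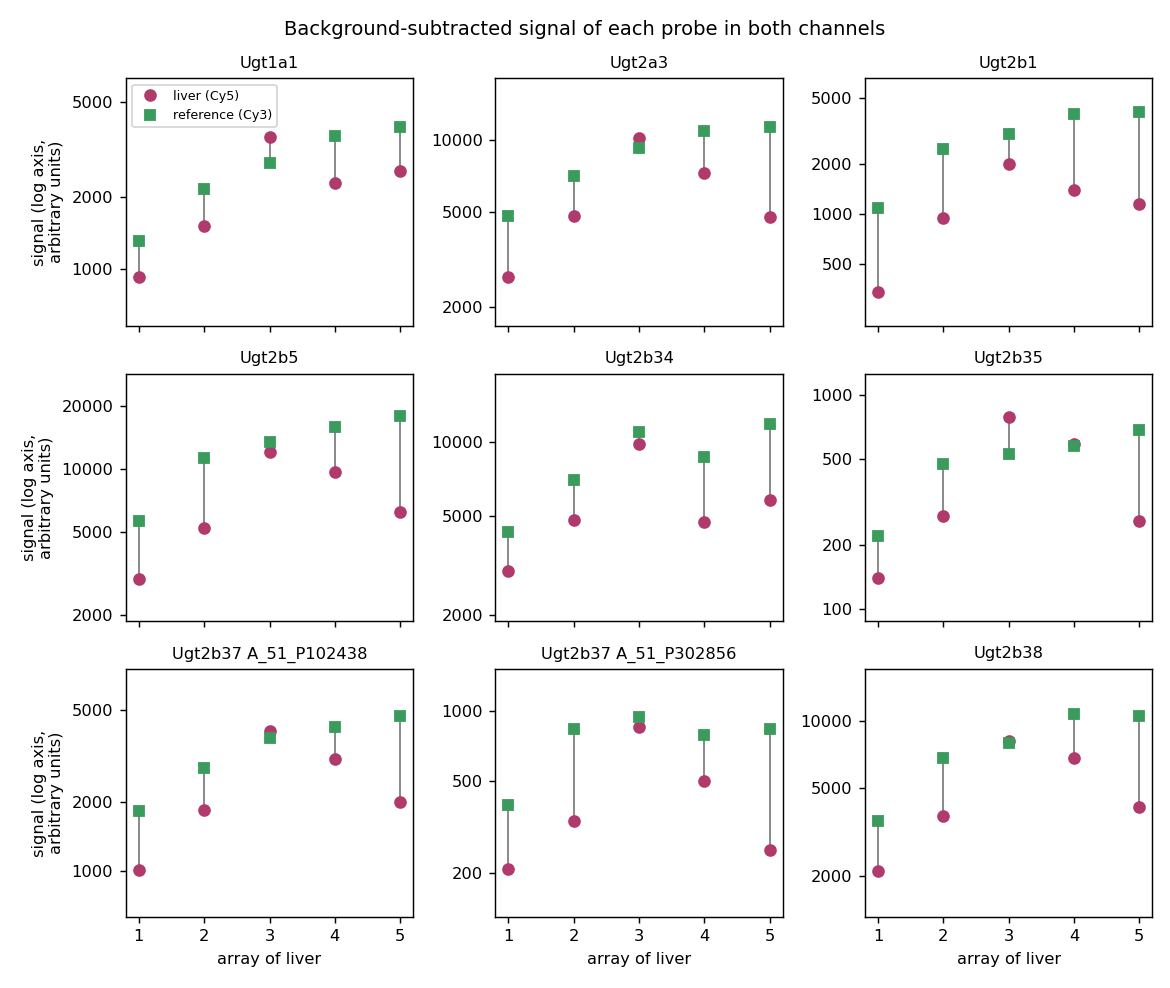
Background-subtracted signal (logarithmic axis, arbitrary units) of the 9 member probes in liver (Cy5, circles) and reference (Cy3, squares), joined for each of the 5 arrays. Liver lies below reference on every array for Ugt2b1, while Ugt2b35 has 784 in liver 3 against 529 in the reference. The signals are not normalized, so one above the reference can go with a ratio below 0. Ugt2b37 (A_51_P102438) in liver 3 has 4051 against 3777 and a log2 ratio of -0.12.

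The members also moved alike from liver to liver, a pattern noticed in the values and given here as a description. With all spots kept, 8 of 9 member probes were highest in liver 3, as were 20.1% of the 26783 probes that cleared background in liver and reference on each array. Ugt2b35 was highest in liver 4. Liver 3 was also highest for 32.1% of 28 pathway genes and 26.7% of 15 hepatocyte and zonal markers, described below. The 9 member probes are not independent, because 2 belong to the same gene and close paralogs may share signal. With non-uniform spots left out, 5 member probes had a value on every array, of which 3 were highest in liver 3 (20.1% of 24009 probes) and 0 lowest there (17.1%). Livers 1, 2 and 5 all lay below livers 3 and 4 for 7 of 9 member probes, against 13.7% of the 26783 probes. The exceptions were Ugt1a1, where liver 5 was above liver 4, and Ugt2b34. With non-uniform spots left out, the order held for 4 of those 5 member probes, against 14.1% of the 24009. The median over the 9 member probes was -0.83, -0.80, -0.18, -0.36 and -0.84 in livers 1 to 5. The median of all probes with values on every array lay between -0.026 and -0.013 in each liver. Array brightness differed too. Median liver signal was 77.4 to 176, highest in liver 3, and median reference signal 74.0 to 149. Whether this has a part in the pattern was not tested. Each liver was on a slide of its own, so slide and liver cannot be told apart.

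**Figure D4:**
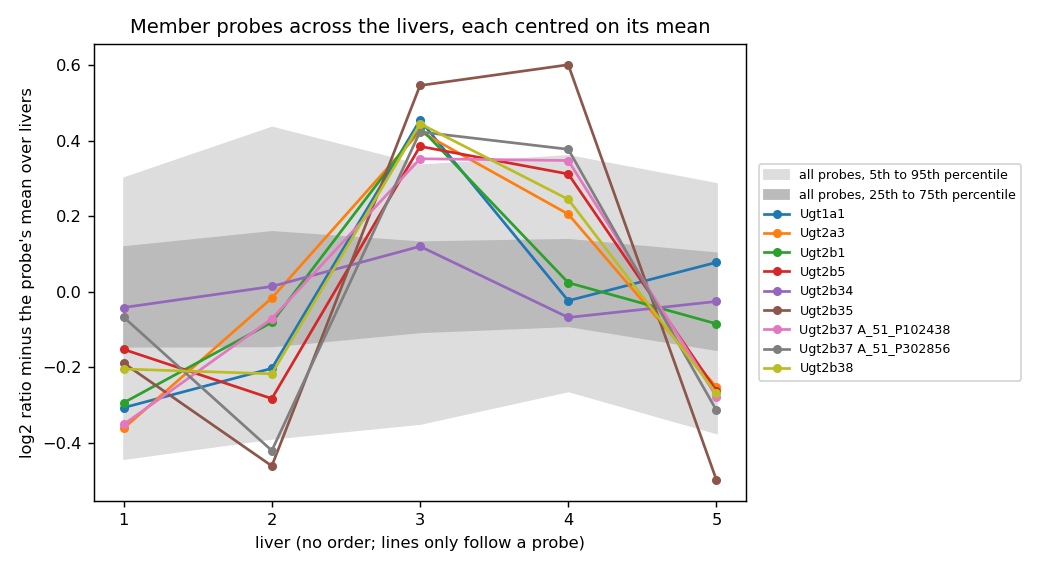
Log2 ratio of each member probe minus its own mean over the 5 livers, all spots kept; shaded bands give the 25th to 75th and 5th to 95th percentiles of 26783 probes. In liver 3 the members lie between 0.12 (Ugt2b34) and 0.55 (Ugt2b35), where the 95th percentile of all probes is 0.34.

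With the processing used here, no single probe passed the test of spread over livers. The test sets each variance against a prior fitted to these same probes. On simulated data it recovered few of the probes made more variable, so its lack of calls shows little. Ugt2b35 had the largest SD of the 5 members with a value on all arrays, 0.54 (log2), where the prior of limma at its brightness was 0.21. The F test gave it an unadjusted p of 0.0332 and an adjusted p of 0.96. An SD at least as large was found for 3.04% of 24009 probes. The test called 0 of the 24009 probes (0%) and thus 0 members. At an unadjusted p below 0.05 it gave 1224 of the 24009, among them Ugt2b35. That is about the share which a cut of 0.05 gives by chance. Of 12446 other named genes, the 3 whose ratios followed Ugt2b35 most closely over the 5 livers were Tcea3, a transcription elongation factor, Pbld2 and Car8. The measure was the root mean square difference after centring, 0.064, 0.11 and 0.14 on the log2 scale, where the median gene had 0.50. Tcea3 was at -0.88, -1.09, -0.054, 0.063 and -1.01 in livers 1 to 5. Among the other members, Ugt2b37 differed from Ugt2b35 by 0.15 (probe A_51_P302856, with 5 other genes closer) and 0.26 (A_51_P102438, with 65 closer). Ugt2b1 differed by 0.37 (846 closer) and Ugt1a1 by 0.40 (1699 closer), so not all members followed Ugt2b35 closely.

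Of the other UGT genes, 6 of 12 had a probe and 5 were tested, of which 3 passed as lower and 0 as higher. Ugt1a9 was at -0.82 ± 0.48 (SD, n = 5; adjusted p = 0.00755), with liver signal well above background on 4 of 5 arrays. It was -1.71 in the processed signals and in the authors' deposited ratios. Ugt1a6b, a near copy of Ugt1a6a, was at -0.51 ± 0.25 (SD, n = 4; adjusted p = 0.0124). Its other probe, non-uniform on 4 arrays, read -0.14 with those spots kept. Ugt2a1 was at -0.50 ± 0.20 (adjusted p = 0.00479), but its other probes, at -0.24 and 0.32, did not pass. Ugt3a2 and Ugt8a, members of other UGT subfamilies that use sugars other than glucuronic acid, were at 0.13 and 0.16 and did not pass.

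The genes that supply the sugar donor were among the lowest of the pathway. Ugdh, which oxidises UDP-glucose to UDP-glucuronic acid, was at -1.35, -1.47, -0.83, -0.49 and -1.03 in livers 1 to 5, a mean of -1.03 ± 0.40 (SD, n = 5; adjusted p = 0.00134). All livers were below the reference, and livers 3 and 4 were nearest to it. Without liver 1 or 2 the mean fell short of 2-fold (-0.95 and -0.92). Ugp2, which makes UDP-glucose, was at -0.95 ± 0.38 (n = 5; adjusted p = 0.00168), and its other probe was at -0.67. Uxs1, which consumes UDP-glucuronic acid to make UDP-xylose, was higher, at 0.89 ± 0.38 (n = 5; adjusted p = 0.00221). Slc35d1, a carrier of UDP-glucuronic acid into the endoplasmic reticulum, and Gusb, which cleaves glucuronides, were at 0.086 and -0.10 and did not pass. In total 2 of the 5 passed as lower and 1 as higher.

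Among 4 exporters of glucuronides, 2 passed as lower. Abcc4 was at -0.65 ± 0.20 (n = 5; adjusted p = 0.00146) and Abcg2 at -0.64 ± 0.22 (n = 5; adjusted p = 0.00203), and the other probe of each also passed. Abcc3 (-0.25) and Abcc2 (-0.0022), the basolateral and canalicular carriers of bilirubin glucuronide, did not pass on the probes used, and another probe of Abcc3 did, at -0.41 (adjusted p = 0.0467). Abcc2 had no stable sign. It was 0.13 without liver 2.

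Of 10 regulators, 3 passed as lower and 0 as higher. Nr1i2, which encodes PXR, was at -0.73, -0.63, -0.24, -0.38 and -0.70 in livers 1 to 5, a mean of -0.54 ± 0.21 (SD, n = 5; adjusted p = 0.00391). Livers 3 and 4 were again the highest. Ppara was at -0.75 ± 0.60 (adjusted p = 0.0272), where liver 2 was lowest at -1.78, and it no longer passed when liver 1 (adjusted p = 0.0785) or 5 (0.0617) was omitted. Nfe2l2, which encodes NRF2, was at -0.41 ± 0.18 (n = 4; adjusted p = 0.0197), and it too fell short when liver 2 (adjusted p = 0.06) or 5 (0.0692) was omitted. Its other probe, at -0.40, passed. Nr1i3, which encodes CAR, was at 0.25 ± 0.82 (n = 3), the highest mean of the list, and did not pass. With non-uniform spots kept it was 0.11, below Ahr at 0.20.

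Of 8 marker targets of these receptors, 5 were tested, of which 2 passed as lower and 1 as higher. Cyp3a11 had no usable spot and Cyp1a1 was at background in both channels. Cyp1a2 had values in livers 1 and 2 only, at -2.40 and -1.37, and was not tested. Its signal was 762 to 4272 in liver and 4205 to 7993 in the reference. Cyp2b10, a target of CAR, was at 1.05, 0.90, 0.52 and 1.30 in livers 1, 2, 3 and 5. Its mean was 0.94 ± 0.33 (SD, n = 4; adjusted p = 0.00207). The liver 4 spot was left out as non-uniform, and with it kept the mean was 1.07 (n = 5). The NRF2 targets Gclc (-0.77 ± 0.54) and Nqo1 (-0.42 ± 0.13) passed as lower, Gclc not without liver 5 (adjusted p = 0.0535). Nqo1 was -1.11 in the processed signals and in the authors' deposited ratios. Tiparp (-0.63 ± 1.15), an AhR target, and Cyp4a14 (-0.50 ± 1.75), a PPARA target, ranged widely and did not pass. Tiparp was at 1.28 in liver 2 and negative in the others, and without liver 2 it passed as lower (-1.11, adjusted p = 0.00621). Livers 1, 2 and 5 all lay below livers 3 and 4 for 11 of the 28 genes of these 5 lists that cleared background throughout (39.3%, all spots kept), among them Ugdh, Ugp2, Nr1i2, Nr1i3 and Ugt2a1.

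**Figure D5:**
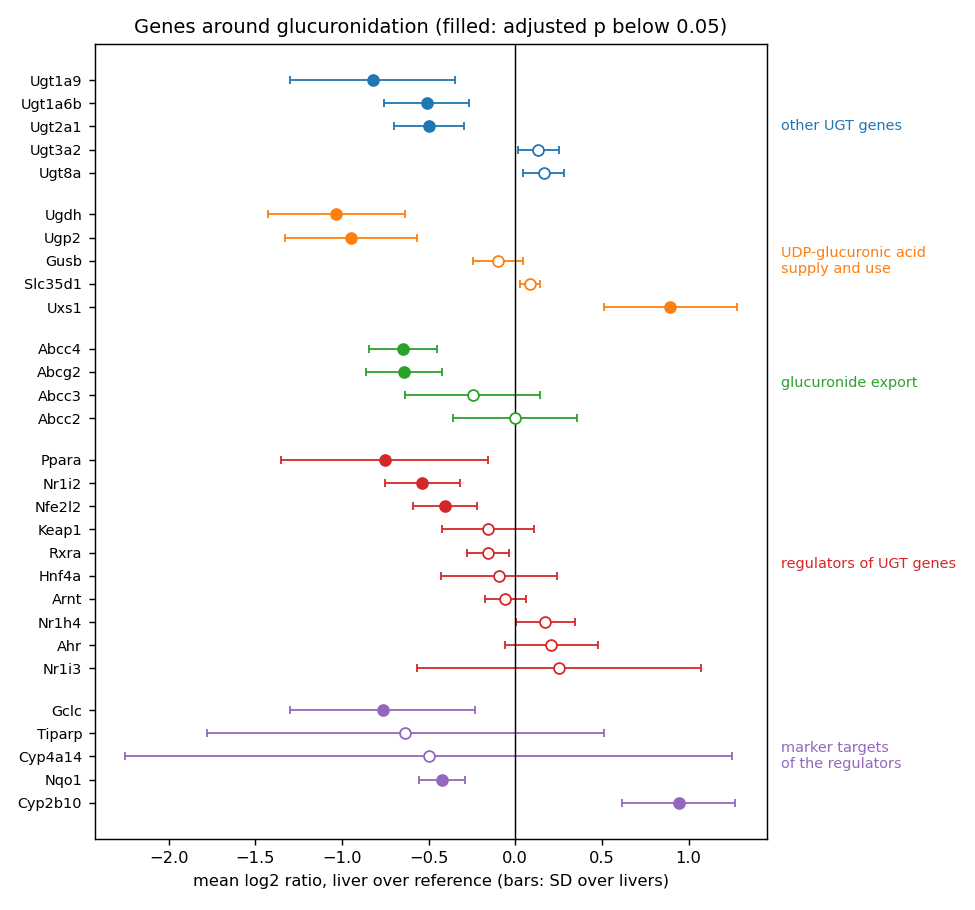
Mean log2 ratio of liver over reference with SD over livers for the tested genes of 5 lists around glucuronidation, filled where the adjusted p was below 0.05. Ugdh (-1.03) and Ugp2 (-0.95) lie lowest and Cyp2b10 (0.94) and Uxs1 (0.89) highest.

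Markers of hepatocytes, liver zones and other tissues were also read. All 7 hepatocyte markers with a probe cleared background in liver and reference on each array. So did 3 of 4 kidney and 3 of 4 intestinal markers, so clearing background does not tell the tissue. Of the hepatocyte markers, 3 passed as higher (Alb, 1.15, Apoa1, 0.94, and Asgr1, 0.26) and 0 as lower. Ttr (0.23) and Cyp2e1 (0.12) lay above 0, Tat (-0.56) and Tdo2 (-0.17) below, and these did not pass. The median log2 ratio of the list was 0.23, whereas the UGT members had a median of -0.53. The median of that list was 0.19, 0.40, 0.25, 0.46 and 0.23 in livers 1 to 5. Of 3 tested pericentral markers 1 passed as lower (Rhbg, -0.58) and of 3 periportal markers 2 (Gls2, -0.85, and Hal, -0.79), and Axin2 was at background in both channels. All 3 tested markers of each zone were below 0. Their median log2 ratio was -0.58 for the pericentral and -0.79 for the periportal markers, lower than that of the UGT members. Livers 1, 2 and 5 lay below livers 3 and 4 for 5 of 15 hepatocyte and zonal markers (33.3%). Kidney and intestine also express UGT genes. The summed signal of 4 kidney markers was 1467 to 2524 in liver and 1122 to 2232 in the reference, with 0 lower and 1 higher (Kap, 0.58). For 4 intestinal markers it was 2342 to 7635 and 5376 to 8321, of which Fabp2, which passed as lower (-0.67), gave 2164 to 7276 and 5226 to 8026. Sis passed as higher (0.37), Vil1 was at -0.069 and did not pass, and Cdx2 was at background. The part of other cell types in the UGT ratios was not tested.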

How the data were processed

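Total RNA of 5 livers was measured on 2-colour Agilent arrays, 1 slide each. Per the file headers, spot intensity was extracted by the authors in version 11.5.1.1 of Agilent's Feature Extraction software. Median spot and background intensity, used here, are not normalized. The deposited log10 ratio column and processed intensities were detrended and dye-normalized, per the file headers. The deposited table of log2 ratios matched the log2 ratio of processed intensities within 0.001 in 201315 of 201315 values of probes with 1 spot, so its scale and direction (liver over reference) are known. How its probes were selected is unknown here.

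In limma 3.58.1 (R 4.3.3), background was corrected by normexp (offset 50) and arrays were normalized by loess, with control and outlier spots at weight 0. Outlier spots (2.32% to 4.05% per array) were left out, and no spot was saturated. Tested probes had at least 3 values and cleared background for liver or reference on 3 or more arrays. The mean ratio was tested against 0 (eBayes with trend and robust prior, two-sided, Benjamini-Hochberg over all tested probes). Spread was tested by an F test against the intensity-dependent prior variance over probes that cleared background in liver and reference on each array. Both were tested on simulated data, where the spread test recovered few of the probes made more variable, so its lack of calls shows little. The number of arrays limits the precision. The reference's own spread and dye effects of single probes are left out of the test. Probes were named by RefSeq identifier in a GRCm38.p6 table (24367 of 41174 matched). The array's own build is mm8, and coordinates are given only for promoters.

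The members and lists were chosen with earlier results of these data known. One regulator was taken off its list and is not reported here. All members and all measured genes of the lists as used were counted, each list gene by its brightest tested probe. Pathway genes past the test or at a list's ends were named, as were some markers. Hepatocyte, zonal, kidney and intestine markers are given here. Lists for other liver cells and blood cells gave these counts lower and higher: Kupffer cell and macrophage 4 and 0 of 6, sinusoidal endothelium 1 and 0 of 4, stellate cell 2 and 0 of 5, bile duct 1 and 0 of 4, neutrophil 0 and 1 of 3, and red blood cell 1 and 0 of 2. Alternatives changed the background correction, normalization, filter, outlier spots, prior, unit of the fit and arrays used.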

Additional observations from a re-analysis of the deposited data

Results flagged for a closer look

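Among 33 probes of members and pathway genes with at least 4 values, 1 had a liver far from the others by Dixon's ratio, about what chance gives (1 in 20). Nqo1, a quinone reductase induced through NRF2, was at -0.65 in liver 2, where the nearest other liver was at -0.41.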

How the results depend on the processing

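No paired analysis was possible because all samples form 1 group. The slide could not be used as a block because each slide held 1 array. Of the values of single member probes recomputed under the alternatives, 108 kept their direction and their side of the threshold, 2 lost the call, 2 gained it and 0 reversed; for pathway genes these counts were 417, 5, 1 and 5. Some alternatives, such as those of filter and prior, left the mean of a probe unchanged. Runs in which a probe had fewer than 3 values are not in these counts. Ugt2b1 stayed between -1.16 and -1.39 and passed in every alternative run. The number of member probes called lower was 4 to 7; without liver 2 or 4 it was 4, where 7 and 6 member probes could be tested. Median centring in place of loess turned Ugt3a2 (-0.076) and Slc35d1 (-0.12), neither of them called, and put the brightest 25% of probes at a median of -0.15. It called 35 probes, and 0 members, in the spread test; a robust prior, an alternative chosen after seeing the data, called 0. Abcc2, not called, ranged from -0.11 to 0.13 with 1 array left out, above 0 without liver 1, 2 or 5. Over all probes, 3682 were lower and 5162 higher, with 102 and 382 at 2-fold. With 1 array left out, these were 1913 to 2865 lower and 2991 to 4807 higher, fewest without liver 4. With 1 brightest probe per gene (14913 tested) they were 1902 and 2119, and 62 and 128 at 2-fold. Processed signals gave 323 lower and 1160 higher at 2-fold, and the authors' deposited log2 ratios 322 and 1166. For the other moved counts the cause was not tested.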
